A study of Mus musculus with 76 samples.

Results

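Sorted thymic cells labelled Treg were compared with sorted thymic cells labelled CD4, both taken at day 30 (d30). The libraries were chosen by their titles, and 11 of the 76 libraries of the series belonged to the comparison. They were 6 Treg libraries (3 from SOD1-G93A and 3 from wild-type mice, WT) and 5 CD4 libraries (3 SOD1-G93A and 2 WT). SOD1-G93A mice carry a mutant human SOD1 transgene and are used as a model of amyotrophic lateral sclerosis. All 11 carry the same strain label, SOD1-G93A, so the genotype was read from the titles and genotype labels. Per the labels the thymus was digested, stained and sorted by flow cytometry, and RNA was amplified with a low-input kit. The sources used here do not give the stains behind each gate, the sex of the mice, or whether a library came from 1 animal or a pool. Nothing states that replicates came from separate animals, so p-values measure the spread between these libraries, which may be partly technical.

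Regulatory T cells restrain other T cells, and many of them are made in the thymus from CD4 cells whose receptors bind self-antigen. They are defined by the transcription factor Foxp3 and carry the interleukin-2 receptor alpha chain (CD25, encoded by Il2ra), which completes the high-affinity interleukin-2 receptor. Il2ra is not unique to them in the thymus: immature thymocytes that have not yet expressed CD4 or CD8 also carry it, together with the recombination enzymes, the pre-T cell receptor and active Notch signalling. Thymocytes then pass through a stage with both CD4 and CD8 before they mature as cells with one or the other.

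Total counts ran from 1944589 to 14047347 per library, with 16986 to 23339 genes detected. Levels are given as CPM, counts scaled to a common library size after TMM scaling. Changes are log2 fold changes ± SE, Treg minus CD4, with genotype as covariate. A gene was called at an adjusted p under 0.05 in edgeR's quasi-likelihood test with a dispersion per gene. On simulated counts for this design 19.2% of such calls were false, against 4.67% with a dispersion shared along the trend of expression. Counts of calls are therefore given for both dispersions. The simulations changed only 200 genes per draw, far fewer than the 3869 called in the data, so these shares of false calls need not hold for the data. Each adjusted p printed for a d30 change comes from the shared dispersion unless a dispersion per gene is named. Sod1, used as a check of genotype, lay at 364 to 1026 CPM in the 6 SOD1-G93A libraries and at 33.3 to 60.2 CPM in the 5 WT libraries, without overlap. The first CD4 SOD1-G93A library stood apart in several genes, with Cd3e, a chain of the T cell receptor complex, at 284 CPM against 760 to 1037 CPM in the other 4 CD4 libraries. Cd3e did not pass the test with all libraries (0.43 ± 0.21, edgeR adjusted p = 0.252). With a dispersion per gene it passed with replicate numbers as a block (0.52, edgeR adjusted p = 0.0268) and without that library (0.22, edgeR adjusted p = 0.0391), but not with the block and a shared dispersion (edgeR adjusted p = 0.159). Without that library Foxp3 was at 1.59 and Il2ra at 4.91, and 4150 genes were called, 2081 higher and 2069 lower. With the block over all libraries 4238 genes (29.2%) were called.

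Of 14522 genes tested, 3869 were called (26.6%), 1928 higher (13.3%) and 1941 lower (13.4%) in Treg than in CD4 libraries. With a shared dispersion the counts were 1479 higher (10.2%) and 1542 lower (10.6%), and 3020 genes were called with both dispersions. Each count of list members called at d30, given below, is to be read against these shares. A count near them does not set a list apart from other genes. Among the 3869 genes, 902 were at least 2-fold higher and 823 at least 2-fold lower. The first principal component held 34.2% of the variance and separated all Treg from all CD4 libraries. In 1092 genes (7.52%) all Treg libraries lay above all CD4 libraries, and in 1016 genes (7.0%) all lay below. In bulk samples, fewer cells of a type and less RNA per cell cannot be told apart.

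**Figure D1:**
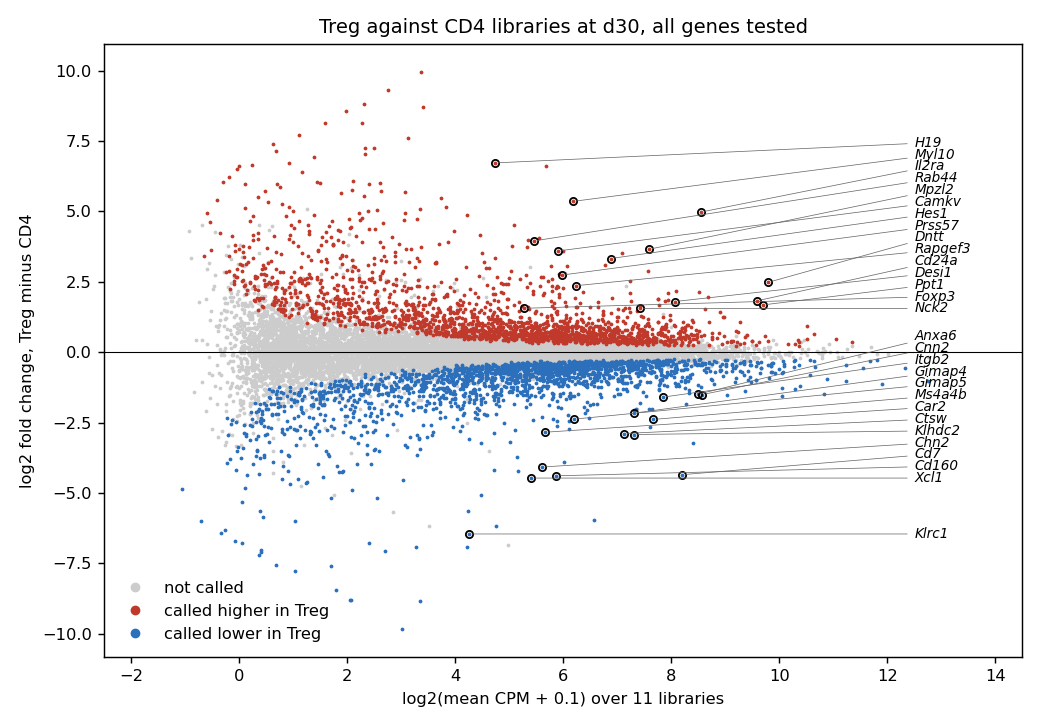
Log2 fold change, Treg minus CD4, against log2(mean CPM + 0.1) for the 14522 genes tested at d30; each point is a gene, coloured by its call, and circles mark the label markers and the named genes. The named genes reach from H19 at 6.72 to Klrc1 at -6.45.

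The 2 markers of the label were both higher in the Treg libraries. Il2ra (chromosome 2, 11642807 to 11693193, mm10) lay at 564 to 765 CPM in the Treg libraries, with a median of 695 CPM. The CD4 libraries held 17.5, 20.9 and 28.7 CPM (SOD1-G93A) and 13.7 and 28.2 CPM (WT), far below every Treg library. The change was 4.98 ± 0.19 (edgeR adjusted p = 4.65e-08), a 31.5-fold difference. Whether the gate for Treg cells used CD25 is not given. Foxp3 (chromosome X, 7573644 to 7595245) lay at 73.7, 77.5 and 51.4 CPM in the SOD1-G93A Treg libraries and at 34.6, 48.4 and 43.8 CPM in the WT Treg libraries. The CD4 libraries held Foxp3 at 23.2, 17.9 and 20.9 CPM (SOD1-G93A) and 16.9 and 15.4 CPM (WT). The groups did not overlap, but Foxp3 was present in every CD4 library and its difference was 2.95-fold (1.56 ± 0.17, edgeR adjusted p = 3.09e-05), much smaller than that of Il2ra.

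Beyond these markers the Treg signature split. Of its 27 genes, all tested, 11 rose and 7 fell with both dispersions, and its median change was 0.05 against a median of 0.00045 over all genes. Ikzf4, a zinc-finger partner of Foxp3, lay at 38.6 to 56.9 CPM in Treg and 6.90 to 10.2 CPM in CD4 libraries (2.47 ± 0.17, edgeR adjusted p = 3.61e-07). Ctla4, an inhibitory receptor that takes ligands from antigen-presenting cells, lay at 203 to 324 CPM against 62.3 to 99.1 CPM (1.63 ± 0.14, edgeR adjusted p = 4.46e-06). Tnfrsf4 (OX40), a costimulatory receptor, rose by 1.95 ± 0.28. The signature genes that fell include some known from thymic Treg cells. Nt5e (CD73), an ectoenzyme that makes adenosine, lay at 15.7 to 24 CPM in Treg and 85.4 to 172 CPM in CD4 libraries (-2.73 ± 0.21, edgeR adjusted p = 2.97e-06). Tigit, an inhibitory receptor, lay at 3.49 to 8.16 CPM against 23.5 to 46.7 CPM (-2.63 ± 0.25, edgeR adjusted p = 1.06e-05). Ikzf2 (Helios), chosen for mention after its values were seen, lay at 133 to 292 CPM in Treg and 241 to 424 CPM in CD4 libraries, ranges that overlap, and its change was -0.71 ± 0.18 (edgeR adjusted p = 0.0243). The data matched the Treg label in Foxp3, Il2ra, Ikzf4 and Ctla4 and went against it in 7 of the 27 signature genes. The CD4 label was not borne out by Cd4, which did not separate the sorts, and Cd8a and Cd8b1 were higher in the CD4 libraries (below). Both sorts are therefore called by their labels throughout.

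**Figure D2:**
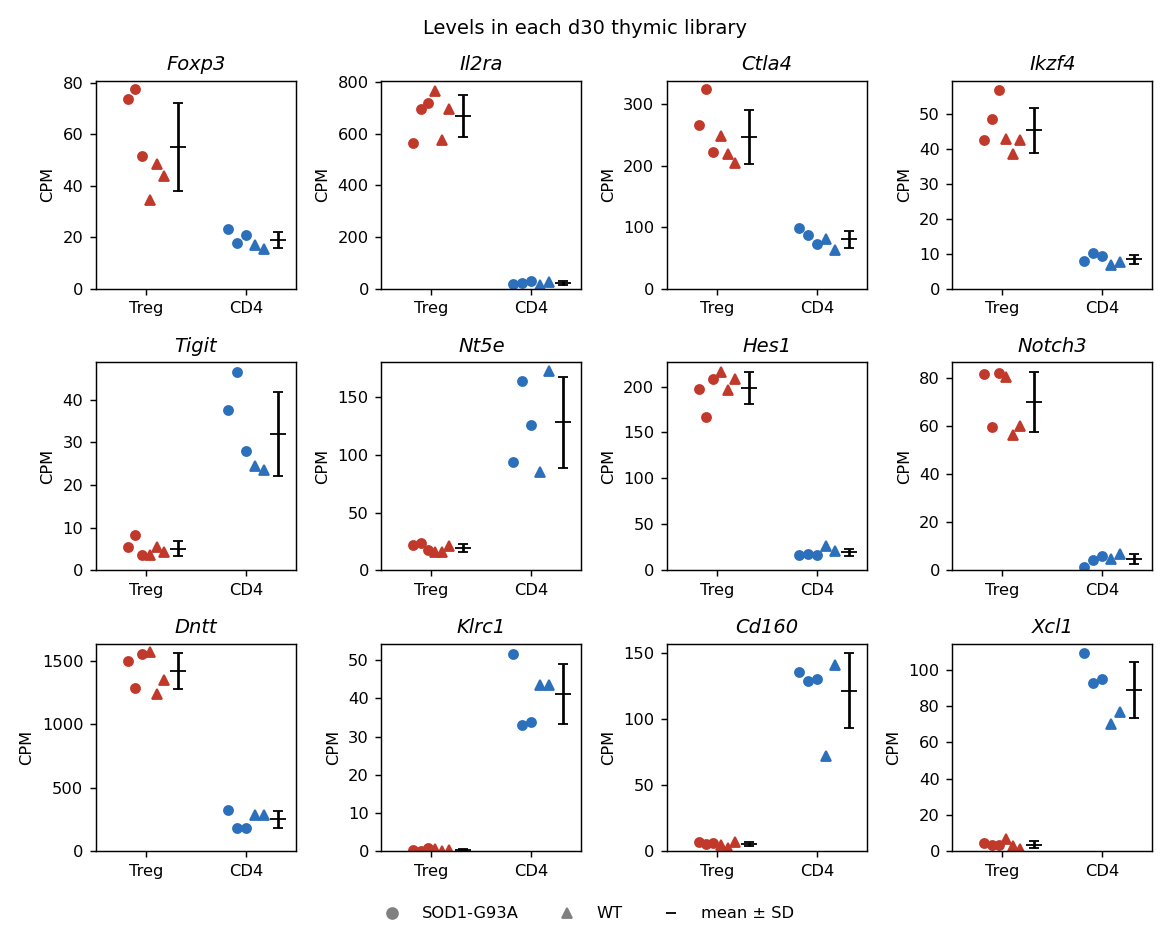
CPM of 12 genes in each d30 library (circles SOD1-G93A, triangles WT), with mean ± SD beside each group of 6 Treg or 5 CD4 libraries; each axis starts at 0 and has its own scale. Treg and CD4 libraries do not overlap in any of the 12 genes, and Tigit, Nt5e, Klrc1, Cd160 and Xcl1 are the 5 that are lower in Treg. The genes were chosen with earlier results known, and Il2ra, Hes1, Dntt, Klrc1, Cd160 and Xcl1 by a rule that requires no overlap. Over all genes tested, 7.52% had all Treg libraries above and 7.0% all below the CD4 libraries.

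The genes most clearly higher in the Treg libraries included Il2ra, Hes1, Dntt and Cd24a, all known from immature thymocytes. A list of early thymocyte genes, made after the values were seen, had 12 of 20 tested genes higher and 6 lower. By the naming rule, which takes the smallest p among genes whose sorts do not overlap, they were Il2ra, Hes1, H19, Mpzl2, Camkv, Ppt1, Myl10, Dntt, Rapgef3, Cd24a, Desi1, Rab44, Prss57 and Nck2, with changes from 1.56 for Nck2 to 6.72 for H19. Hes1 (chromosome 16, 30064384 to 30067796), a repressor switched on by Notch, lay at 166 to 216 CPM in Treg libraries (median 203 CPM). In CD4 libraries it lay at 16.7, 17.5 and 17 CPM (SOD1-G93A) and 25.8 and 20.5 CPM (WT), and the groups were far apart (3.33 ± 0.14, edgeR adjusted p = 1.79e-08). H19, an imprinted long non-coding RNA, was at 30.6 to 66.5 CPM in every Treg library and at 0 to 0.854 CPM in the CD4 libraries (6.72 ± 0.33). Mpzl2, an adhesion molecule, lay at 264 to 389 CPM against 19.1 to 38.4 CPM (3.65 ± 0.18). Cd24a, a surface protein that thymocytes lose as they mature, lay at 1038 to 1235 CPM against 281 to 402 CPM (1.82 ± 0.11).

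Most markers of the double-positive stage were higher too. Of 12 markers of that stage, all tested, 8 rose and 2 fell with both dispersions (median change 0.94). Dntt, which adds untemplated bases at receptor gene joints and is shared with earlier stages, lay at 1239 to 1564 CPM in Treg libraries. CD4 libraries held it at 325, 184 and 182 CPM (SOD1-G93A) and 287 and 284 CPM (WT), so the groups were well separated (2.48 ± 0.15, edgeR adjusted p = 1.00e-06). Ptcra, the pre-T cell receptor alpha chain, lay at 78.0 to 122 CPM against 13.9 to 29.0 CPM (2.31 ± 0.20, edgeR adjusted p = 1.04e-05). Arpp21 rose by 1.82 ± 0.13, Aqp11 by 2.11 ± 0.33 and Tcf12, an E protein that drives thymocyte genes, by 0.99 ± 0.14. The 2 markers that fell, Cd8a and Cd8b1 (the second named after its values were seen), encode the chains of CD8. Cd8a lay at 121 to 179 CPM in Treg libraries and at 411, 222 and 337 CPM (SOD1-G93A) and 266 and 311 CPM (WT) in the libraries labelled CD4 (-0.98 ± 0.16, edgeR adjusted p = 0.00097). Cd4 itself did not separate the sorts, at 164 to 216 CPM in Treg and 161 to 226 CPM in CD4 libraries (0.06 ± 0.12, edgeR adjusted p = 0.78).

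The summed level of the double-positive markers was 2707 to 3465 CPM in Treg and 1148 to 1688 CPM in CD4 libraries, without overlap. Dntt, at 1239 to 1564 CPM against 182 to 325 CPM, was a large part of this sum. It was named by a rule that requires no overlap, so the lack of overlap in the sum was largely fixed by that gene. With this level as a covariate 335 genes were called, 177 higher and 158 lower; Foxp3 was then at 1.82 with an edgeR adjusted p of 0.0737 (dispersion per gene), while Il2ra (4.48), Hes1 (3.16) and Ctsw (-3.02) were still called. Of 116 genes named here, 60 kept their direction but no longer passed with the covariate, and 3 changed direction and did not pass either. Those that no longer passed include Tigit, Nt5e, Ptcra, Arpp21, Il2rb, Eomes, S1pr1, Klf2, Irf7, H2-Ab1, Cenpa, Sqle and Idi1. Ptcra and Arpp21 are themselves part of the sum, so the covariate adjusted them in part for their own levels. The level followed the sort, so it and the sort cannot be told apart, and the part of such cells in each result was not tested.

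Receptors and targets of Notch, which holds early thymocytes in the T lineage, were looked up after the values were seen. Of 23 such genes 9 rose, 1 fell and 13 did not pass, a count that supports nothing since the list was made from these values. Notch3 lay at 56.4 to 82.2 CPM in Treg and 1.46 to 6.83 CPM in CD4 libraries (3.99 ± 0.31). Notch1 lay at 217 to 271 CPM against 12.9 to 62.5 CPM (2.52 ± 0.28), the lowest being the first CD4 SOD1-G93A library. Dtx1, a Notch target, lay at 31.4 to 42.9 CPM against 11.7 to 23.2 CPM (1.10 ± 0.21). The constant genes of the gamma chain of the other T cell receptor were higher too. Tcrg-C1 lay at 286 to 369 CPM against 36.1 to 55.5 CPM (2.87 ± 0.13), and Tcrg-C2 at 367 to 517 CPM against 67.3 to 122 CPM (2.17 ± 0.17). These 2 constant genes are near-identical copies, so reads may be split between them. Of 10 markers of gamma delta T and innate lymphoid cells 5 rose and 3 fell (5 and 1 with a shared dispersion). Sox13 rose by 1.89 ± 0.43, while Zbtb16 (PLZF), a factor of innate-like T cells, fell by 2.47 ± 0.50.

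Promoters are shown for 3 genes, 1 each from the Notch-related, NK-type and cholesterol genes, each as the 250 bases before the RefSeq start (GRCm38.p6), on the gene's strand, with motif matches in capitals: the RBPJ motif through which Notch acts in Ptcra (chr17:46763713-46763962, minus strand), a T-box motif, bound by factors such as Eomes and Tbx21, in Nkg7 (chr7:43436888-43437137, plus strand), and a sterol response motif bound by SREBP in Hmgcs1 (chr13:119690101-119690350, plus strand). Nkg7, a granule protein, and Hmgcs1, a sterol enzyme, are described with their groups further on. Hmgcs1 falls outside the naming rule, and all 3 were chosen after their matches were seen.
Ptcra: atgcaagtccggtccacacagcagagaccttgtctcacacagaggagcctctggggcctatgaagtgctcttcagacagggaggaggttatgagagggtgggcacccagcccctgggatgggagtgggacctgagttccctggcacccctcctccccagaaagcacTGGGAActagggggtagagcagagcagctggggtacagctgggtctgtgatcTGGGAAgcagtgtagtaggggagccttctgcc
Nkg7: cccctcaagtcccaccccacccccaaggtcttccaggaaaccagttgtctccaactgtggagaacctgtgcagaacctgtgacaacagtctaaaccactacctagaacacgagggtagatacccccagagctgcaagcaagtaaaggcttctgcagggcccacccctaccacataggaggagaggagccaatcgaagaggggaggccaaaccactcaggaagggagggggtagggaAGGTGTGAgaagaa
Hmgcs1: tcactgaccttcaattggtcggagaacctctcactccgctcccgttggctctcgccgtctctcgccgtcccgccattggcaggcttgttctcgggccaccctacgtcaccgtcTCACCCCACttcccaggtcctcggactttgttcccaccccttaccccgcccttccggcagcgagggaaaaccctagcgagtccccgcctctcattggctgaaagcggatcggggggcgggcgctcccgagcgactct

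The motifs searched, on both strands, were TGGGAA (RBPJ), TCACACCT (T-box) and TCACNCCAC (SREBP). Among 32851 promoters of the same length, 21.6%, 1.12% and 1.05% held them. TGGGAA starts at positions -84 and -32 in Ptcra, counted back from the start. AGGTGTGA, the T-box motif read on the other strand, starts at -14 in Nkg7, and TCACCCCAC starts at -137 in Hmgcs1. Only the motif named for each gene is in capitals. The Hmgcs1 promoter also held the RBPJ motif, read on the other strand as TTCCCA, which is left in lower case. Of the 14 named genes that rose most clearly, 8 had a promoter in the table and 1 (Myl10) held TGGGAA. Of the 17 cholesterol genes 11 had promoters, and Hmgcs1 was the 1 gene of these with a TCACNCCAC match. Of 24 promoters of the Notch genes 7 (29.2%) held TGGGAA, and of 23 promoters of NK-like genes, a list also made after the values were seen, 1 (Nkg7) held the T-box motif. A match is a description of letters and not a bound site.

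The genes most clearly lower in the Treg libraries included Ctsw, Klrc1, Cd160 and Xcl1, all known from cytotoxic and natural killer (NK) cells. By the same rule they were Ctsw, Klrc1, Cd160, Klhdc2, Ms4a4b, Car2, Xcl1, Cd7, Itgb2, Gimap4, Anxa6, Chn2, Cnn2 and Gimap5. Ctsw (chromosome 19, 5465043 to 5468507), a cathepsin of cytotoxic cells, lay at 28.4 to 44.5 CPM in Treg libraries. CD4 libraries held it at 292, 307 and 253 CPM (SOD1-G93A) and 204 and 258 CPM (WT), so no library overlapped (-2.89 ± 0.12, edgeR adjusted p = 1.79e-08). Klrc1 (NKG2A), an NK receptor, was at 0 to 0.822 CPM in Treg libraries. CD4 libraries held it at 51.7, 33.1 and 33.7 CPM (SOD1-G93A) and 43.6 and 43.5 CPM (WT), at least 33.1 CPM in each (-6.45 ± 0.33). Cd160, a receptor of NK and CD8 cells, lay at 2.64 to 7.15 CPM against 72.2 to 141 CPM (-4.39 ± 0.23). Xcl1, a chemokine that attracts cross-presenting dendritic cells, lay at 1.20 to 6.62 CPM against 69.9 to 109 CPM (-4.47 ± 0.26). Cd7 lay at 16.6 to 66.5 CPM against 498 to 693 CPM, and the Treg library at 66.5 CPM was the first SOD1-G93A replicate.

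Of 16 markers of CD8, cytotoxic and NK cells, all tested, 13 fell and 1 rose with both dispersions (median change -2.03). Nkg7 lay at 73.3 to 91.2 CPM in Treg and 207 to 345 CPM in CD4 libraries (-1.80 ± 0.13, edgeR adjusted p = 1.00e-06). Klrd1 (CD94), the partner of Klrc1, fell by 3.74 ± 0.26. Eomes, a T-box factor of memory and NK cells, lay at 0 to 2.04 CPM in Treg and at 18.1, 41.4 and 71.2 CPM (SOD1-G93A) and 25.4 and 44.0 CPM (WT) in CD4 libraries. The 1 marker that rose was Gzma, a granule protease, at 146 to 214 CPM against 28.2 to 60.8 CPM (1.91 ± 0.17). Gimap4 and Gimap5, GTPases that support lymphocyte survival, fell by 2.16 ± 0.14 and 2.38 ± 0.16.

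**Figure D3:**
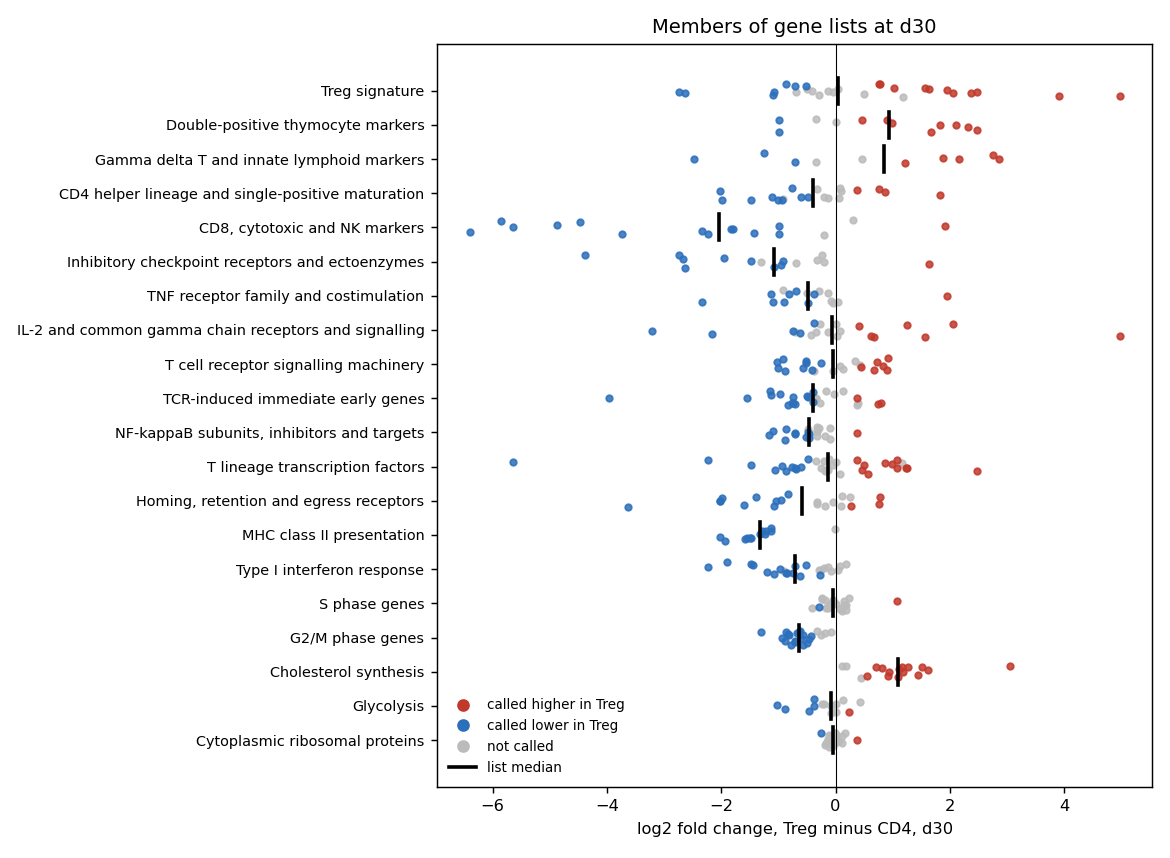
Log2 fold change, Treg minus CD4, at d30 for the members of 20 gene lists, 1 point per gene coloured by its call, with a black bar at the list median. Double-positive markers (median 0.94) and cholesterol synthesis (1.09) lie to the right, and CD8, cytotoxic and NK markers (-2.03) and MHC class II genes (-1.32) to the left.

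Receptors that tune T cells were mostly lower in the Treg libraries. Of 15 inhibitory checkpoint receptors and ectoenzymes 9 fell and 1, Ctla4, rose with both dispersions (median -1.07). Pdcd1 (PD-1) lay at 40.8 to 64.8 CPM in Treg libraries and at 271, 462 and 399 CPM (SOD1-G93A) and 241 and 417 CPM (WT) in CD4 libraries (-2.67 ± 0.18). Lgals3, a galectin, fell by 1.95 ± 0.18. Of 16 TNF receptor family and costimulation genes 8 fell and 1 rose (6 and 1 with a shared dispersion, median -0.49). Cd28, the main costimulatory receptor, lay at 171 to 199 CPM against 255 to 359 CPM (-0.81 ± 0.10). Tnfrsf9 (4-1BB) fell by 1.10 ± 0.14, Cd226, an activating counterpart of Tigit, by 2.34 ± 0.34 and Cd2 by 0.90 ± 0.12.

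The interleukin-2 receptor did not move as a unit. Of 20 genes of the common gamma chain receptors and their signalling 7 rose and 5 fell (6 and 4 with a shared dispersion). Il2rb, the beta chain shared with the interleukin-15 receptor, lay at 43.2 to 88.8 CPM in Treg libraries and at 258, 1010 and 687 CPM (SOD1-G93A) and 480 and 850 CPM (WT) in CD4 libraries. It changed by -3.21 ± 0.27 (edgeR adjusted p = 1.88e-05), opposite to Il2ra. Il2rg, the common gamma chain, fell by 0.75 ± 0.09. Among downstream genes Socs2, a feedback inhibitor, lay at 47.7 to 124 CPM against 8.96 to 24.6 CPM (2.06 ± 0.30), while the kinase Pim2 fell by 2.16 ± 0.17.

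T cell receptor signalling showed both directions in its machinery and mostly lower levels in the genes it induces. Of 21 signalling genes 6 rose and 9 fell (5 and 9 with a shared dispersion). Themis, an adaptor of positive selection, rose by 0.89 ± 0.13. The kinase Fyn fell by 1.02 ± 0.10, and the phosphatases Ptpn6 and Ptpn22 fell by 0.91 ± 0.11 and 0.89 ± 0.13. Of 25 immediate early genes induced by the receptor 14 fell and 3 rose (11 and 2 with a shared dispersion, median -0.39). Nr4a2, a nuclear receptor of strong signals, lay at 79.0 to 122 CPM against 173 to 365 CPM (-1.55 ± 0.17). Fos lay at 420 to 642 CPM against 880 to 1383 CPM (-0.98 ± 0.12), and Ier2 fell by 1.15 ± 0.12. Ifrd1 fell by 0.74 ± 0.13. Spry2, an inhibitor of the Ras pathway, was at 0.241 to 1.23 CPM against 3.14 to 17.7 CPM. Of 20 genes of the NF-kappaB pathway 10 fell and 1 rose (7 and 1 with a shared dispersion, median -0.46). Nfkb1, a subunit, fell by 1.10 ± 0.16 and the inhibitor Nfkbia by 0.86 ± 0.15.

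Transcription factors of the T lineage were split, with 11 of 33 higher and 11 lower (9 and 11 with a shared dispersion). Runx1 lay at 195 to 296 CPM in Treg and 75.8 to 124 CPM in CD4 libraries (1.25 ± 0.15), and Myb, needed from the early stages on, rose by 1.07 ± 0.14. Of 20 genes of the CD4 helper lineage and of maturation 9 fell and 4 rose (9 and 3 with a shared dispersion, median -0.40). Cd24a, which thymocytes lose as they mature, is a member and rose, so the counts and median are not a measure of maturation. S1pr1, the receptor that lets mature cells leave the thymus, lay at 17.2 to 32.1 CPM in Treg and 87.5 to 130 CPM in CD4 libraries (-1.98 ± 0.16). Its activator Klf2 fell by 1.47 ± 0.20 and Foxo1, upstream of Klf2, by 0.93 ± 0.14. Of 20 homing and egress receptors 10 fell and 3 rose (9 and 2 with a shared dispersion, median -0.58). Itgb7, an integrin of gut homing, lay at 48.5 to 133 CPM against 293 to 366 CPM (-2.02 ± 0.20). Gpr15, a gut homing receptor, fell by 3.62 ± 0.50, Cxcr6 by 2.02 ± 0.29 and Gpr183, an oxysterol receptor, by 1.60 ± 0.24.

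Genes of MHC class II presentation, which show antigen to CD4 cells and which mouse T cells barely express, were lower in the Treg libraries. Of 13 genes 12 fell and none rose with both dispersions (median -1.32), against 13.4% of all genes called lower. H2-DMb2, a peptide-loading chaperone, lay at 53.4 to 113 CPM in Treg and 144 to 460 CPM in CD4 libraries (-2.01 ± 0.27). Ciita, the master activator of the class, lay at 13.1 to 24 CPM against 34.4 to 121 CPM. H2-Ab1, the beta chain of I-A, lay at 606 to 1492 CPM against 1346 to 4369 CPM, ranges that overlap (-1.47 ± 0.25). Ifi30 and H2-Oa fell by 1.58 ± 0.26 and 1.55 ± 0.26. The summed level of the 13 genes was 3581 to 8242 CPM in Treg and 6701 to 19945 CPM in CD4 libraries.

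Markers of cells that present antigen were in both sorts. Of 21 dendritic cell and macrophage markers 6 rose and 5 fell (6 and 4 with a shared dispersion), and they summed to 969 to 1959 CPM in Treg and 1041 to 2370 CPM in CD4 libraries. Itgax (CD11c) fell by 1.39 ± 0.25. Lyz2, of macrophages, lay at 76.0 to 227 CPM in Treg libraries and at 146, 29.3 and 59.5 CPM (SOD1-G93A) and 37.8 and 35.4 CPM (WT) in CD4 libraries (1.35 ± 0.37). C1qc rose by 2.89 ± 0.50. Of 12 tested B cell markers (Pax5 and Vpreb3 were too low) 1, Ighd, fell and none rose, and the 14 summed to 758 to 2777 CPM against 930 to 1793 CPM. Cd79a did not pass the test (5.96 to 25.3 against 14.2 to 37.6 CPM). No dendritic cell, macrophage or B cell marker was at 0 in all 11 libraries. The part of these cells in the MHC class II difference was not tested.

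Markers of other thymic cells were low or scattered. Of 7 tested markers of medullary thymic epithelial cells 2 rose and 1 fell (4 and 1 with replicate numbers as a block). Aire, their defining regulator, lay at 4.09 to 34.1 CPM in Treg and 2.53 to 6.83 CPM in CD4 libraries without passing the test (0.99 ± 0.50; with replicate numbers as a block the edgeR adjusted p was 0.0248 with a dispersion per gene and 0.0707 with a shared one). The upper end for Aire was 1 library, the second WT Treg replicate, with 245 counts against 27 to 40 in the other Treg libraries. That library also held 216 counts of Csn2 and 75 of Fezf2, against 0 to 3 and 0 to 4 in the other Treg libraries. Its 12 medullary markers summed to 267 CPM, against 122 to 182 CPM in the other Treg libraries. Epcam lay at 87.1 to 130 against 60.2 to 91.9 CPM (0.50 ± 0.16). Of 9 tested markers of cortical thymic epithelial cells 3 fell and none rose (2 fell with a shared dispersion, and 2 fell and 1 rose with replicate numbers as a block), and Prss16, a protease of these cells, lay at 0.241 to 13.4 CPM against 53.3, 8.46 and 50.7 CPM (SOD1-G93A) and 2.10 and 44.0 CPM (WT). Of 5 tested fibroblast and endothelial markers 2 rose and 1 fell (2 and 0 with a shared dispersion, 2 and 2 with the block), and of 3 tested erythroid markers 2 rose (0 with a shared dispersion, 1 with the block). Hbb-bs, a globin, was at 0 in all CD4 libraries and at 0 to 7.65 CPM in Treg libraries, highest in the second SOD1-G93A replicate.

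Type I interferon response genes were lower in the Treg libraries. Of 23 genes 14 fell and none rose with both dispersions (median -0.71), against 13.4% of all genes called lower (10.6% with a shared dispersion). Irf7, the factor that amplifies the response, lay at 58.5 to 87.9 CPM in Treg and 164 to 233 CPM in CD4 libraries (-1.49 ± 0.14, edgeR adjusted p = 1.30e-05). Ifit3 lay at 7.15 to 12.8 CPM against 24.8 to 55.0 CPM (-2.24 ± 0.25). Oas1a and Usp18 fell by 1.44 ± 0.22 and 1.20 ± 0.19.

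Cell cycle genes separated by phase. Of 22 genes of the G2 and M phases 18 fell and none rose (17 with a shared dispersion, median -0.63). Cenpa, the centromeric histone, lay at 70.9 to 95.9 CPM in Treg and at 204, 240 and 175 CPM (SOD1-G93A) and 210 and 230 CPM (WT) in CD4 libraries (-1.31 ± 0.13). Birc5 (survivin) and Ube2c fell by 0.94 ± 0.13 and 0.89 ± 0.14. Of 22 S phase genes 1 rose and 1 fell (1 and 2 with replicate numbers as a block), against 26.6% of all genes called. Uhrf1, which maintains DNA methylation, lay at 363 to 521 CPM against 166 to 272 CPM (1.07 ± 0.13), and Rrm2, a subunit of ribonucleotide reductase, changed by -0.29 ± 0.10.

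Sterol genes were higher in the Treg libraries. Of 17 genes of the cholesterol synthesis list 14 rose and none fell (13 with a shared dispersion, median 1.09), against 13.3% of all genes called higher. Sqle, squalene epoxidase, lay at 68.3 to 133 CPM in Treg libraries and at 32.9, 29.3 and 40.0 CPM (SOD1-G93A) and 39.5 and 35.0 CPM (WT) in CD4 libraries, without overlap (1.62 ± 0.18, edgeR adjusted p = 6.3e-05). Idi1, Cyp51 and Fdps rose by 1.45 ± 0.17, 1.26 ± 0.15 and 0.94 ± 0.14, and Hmgcs1 by 1.09 ± 0.21. Of 15 glycolysis genes 5 fell and 1 rose (5 and 0 with a shared dispersion). Pfkp, a phosphofructokinase, lay at 107 to 127 CPM in Treg and 215 to 276 CPM in CD4 libraries (-1.02 ± 0.11), and Eno1 fell by 0.89 ± 0.11.

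The difference between the sorts was then compared between genotypes. Fitted alone, the SOD1-G93A libraries gave 913 higher and 913 lower genes and the WT libraries 1319 and 1295. Of 3546 genes called with both genotypes together and fitted in each, 1322 were called in each genotype alone. These genes were chosen on the same libraries, so their shared sign in both genotypes was nearly fixed by the choice. Foxp3 differed by 1.70 in SOD1-G93A and 1.38 in WT, and Il2ra by 4.90 and 5.10, and neither difference between genotypes passed the test (edgeR adjusted p = 0.99999 for each, dispersion per gene). Of 14522 genes, 3 (0.0207%) showed a genotype difference in the contrast with a dispersion per gene, 2 more positive in SOD1-G93A (Zfp82 and Gm10925, 0.0138%) and 1 more negative (Gm4294, 0.00689%), with 427 at an unadjusted p under 0.05. None passed with a shared dispersion, in which 315 had an unadjusted p under 0.05, and DESeq2 called 3.

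The same contrast was measured at day 120 (d120) in 12 further libraries, 3 of each sort and genotype, which share no library with d30. At d30 the sorts overlapped in depth (Treg 1944589 to 9691356 counts, CD4 2346044 to 14047347). At d120 the CD4 libraries held 837050 to 2239878 counts and the Treg libraries 3241250 to 34151147, so depth followed the sort. In a fit of the 23 libraries of both days, 3513 of 15725 genes were called at d120 (22.3%), 2106 higher (13.4%) and 1407 lower (8.95%) in Treg. The split depended on the method, with 1986 higher and 1949 lower in DESeq2 and 2459 higher and 1169 lower with replicate numbers as a block. The 12 libraries alone gave 1584 calls among 12485 genes (834 higher, 750 lower). The shares below rest on the joint fit, in which the d30 libraries entered the filter and the dispersion, so they are not from an independent fit. Of 1920 genes higher at d30 and tested at d120, 805 (41.9%) were called higher again and 28 were called lower, and these 805 were 38.2% of the genes higher at d120. Of 1940 lower genes 531 (27.4%) were called lower again and 79 higher, and the 531 were 37.7% of the genes lower at d120. Il2ra (5.08 ± 0.38), Hes1 (3.92 ± 0.36), Dntt (3.06 ± 0.27), Ctsw (-3.07 ± 0.21) and Xcl1 (-5.91 ± 0.49) had the same direction on both days. Cholesterol genes had a median of 0.85 at d120, with 7 of 17 higher, and the cytotoxic and NK markers a median of -2.83, with 14 of 16 lower.

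**Figure D4:**
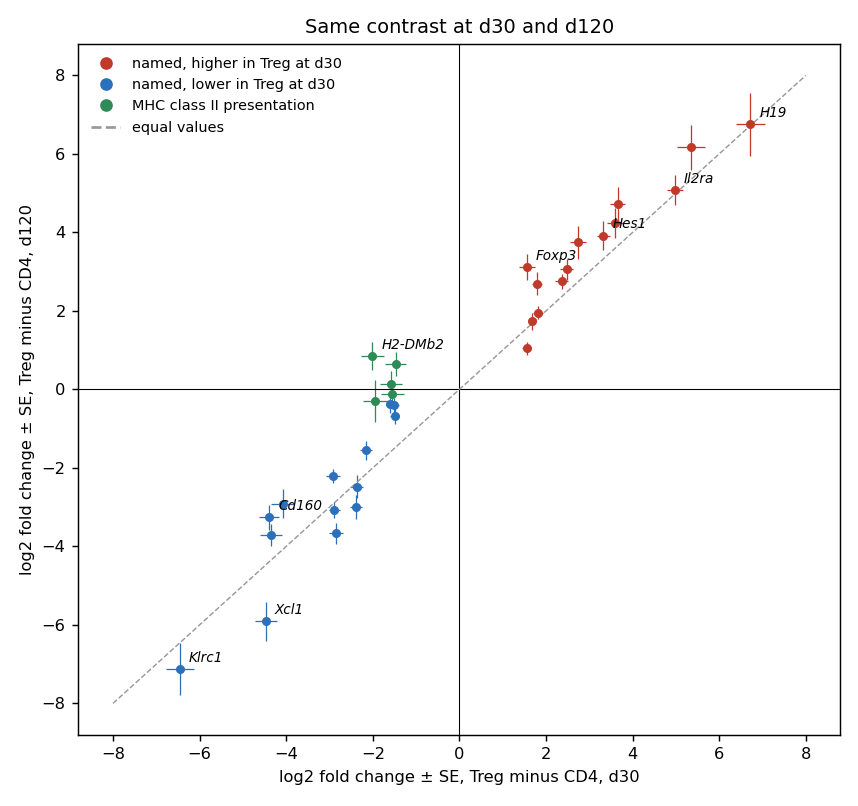
Log2 fold change ± SE, Treg minus CD4, at d30 (x axis) and d120 (y axis) for the label markers, the named genes except Rab44, which is at 0 in all CD4 libraries of d120, and 5 MHC class II genes; the dashed line marks equal values. Foxp3 (1.56 and 3.12), Itgb2 (-1.60 and -0.37) and Cnn2 (-1.50 and -0.40) lie off the line, and H2-DMb2 lies at -2.01 at d30 and 0.84 at d120.

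The contrast differed between the days in 577 of 15725 genes (3.67%), 158 more positive and 419 more negative (2.66%) at d30 (60 and 167 with a shared dispersion). The days are separate sets of libraries with different depths, so age, library set and depth cannot be told apart. Foxp3 separated the sorts less at d30 than at d120 (1.56 ± 0.17 against 3.12 ± 0.32, difference -1.57 ± 0.43). At d120 it lay at 70.9 to 247 CPM in Treg and 7.71 to 19.5 CPM in CD4 libraries. The edgeR adjusted p of this difference was 0.0153 with a dispersion per gene and 0.0506 with a shared one, so the call ends with the second. MHC class II genes had a median of -1.32 at d30 and 0.65 at d120, and 10 of 13 passed the test of the day difference. At d120 itself 3 of the 13 were called higher and none lower. H2-DMb2 differed by -2.90 between the days (edgeR adjusted p = 0.0094) and H2-Ab1 by -2.14 (edgeR adjusted p = 0.0222), both with a shared dispersion. At d120 B cell markers had a median of 1.49 and 5 of 12 were higher in Treg, and dendritic cell and macrophage markers a median of 0.83, and their part in this change was not tested. S phase genes, with 1 of 22 higher at d30, had 12 of 22 higher at d120, and 4 passed the test of the day difference. G2 and M phase genes, 18 lower at d30, had 1 lower and 1 higher at d120, and 2 passed that test.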

How the data were processed

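Bulk RNA of sorted thymic cells was deposited as whole-number counts per gene, which the authors made from their reads and which were used as deposited. Per the submitters' processing notes, mm10 and DESeq2 were used, in roles they do not state. The sources used here give no aligner, counter or strand setting. Of 55487 gene IDs 55394 matched GENCODE vM21 (300 without the version number). The members and gene lists were chosen with earlier results of these data known.

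Counts of the 11 d30 libraries were fitted with edgeR 4.0.16 in R 4.3.3 (TMM, filterByExpr by group, estimateDisp, legacy glmQLFit and glmQLFTest, genotype as covariate), with Benjamini-Hochberg adjustment over all genes. The d120 contrast and the day difference come from a fit of 23 libraries. Simulated counts (4 draws, 200 changed genes each, 14307 or more tested) found 60.8% of 2-fold and 87.9% of 4-fold changes with a dispersion per gene, with 141 of 733 calls false, and 46.6% and 76.3% with a shared one, with 24 of 514 false. Named were Foxp3, Il2ra, in each direction the 14 genes of smallest p with a mean of at least 5 CPM and no overlap of sorts (predicted genes and receptor segments left out), up to 5 members of each list, marker checks and up to 5 interaction genes per direction.

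Same-numbered Treg and CD4 libraries deviated together (correlations 0.194 to 0.286 in 5 pairs, over the limit of 0.1), so replicate numbers, taken from the titles, were treated as pairing in an alternative fit. Other alternatives were DESeq2 1.42.0, limma 3.58.1 voom with quality weights, median-of-ratios scaling, no filter beyond 1 count, each genotype alone, all 23 libraries, double-positive markers as covariate and each library left out. After the data were seen, edgeR without the legacy option and the replicate block with a shared dispersion were added. Some genes that the naming rule takes are not reported here. Promoters are RefSeq's. Plots used Python 3.11.15 and matplotlib 3.10.9.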

Additional observations from a re-analysis of the deposited data

Results flagged for a closer look

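Groups of 2 or 3 libraries were too small for the check for single libraries that stand far from their group. The following genes are given because their Treg versus CD4 difference itself differed between groups, by a test of that difference.

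With a dispersion per gene, the contrast differed between genotypes in Gm4294 (edgeR adjusted p = 0.000173), Zfp82 (edgeR adjusted p = 0.00085) and Gm10925 (edgeR adjusted p = 0.0107). Gm4294 was at 0 in all 3 SOD1-G93A Treg libraries and at 4.87 ± 1.94 CPM (SD, n = 3) in the WT Treg libraries. None of the 3 passed with a shared dispersion.

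Between the days, d30 minus d120 and with a dispersion per gene, the contrast was more positive in Serpinb9 (2.86), Ccl5 (3.45), Nop58 (1.55), Vgll4 (1.48) and Ifng (3.25). It was more negative in Il10ra (-2.86), Rasgrp3 (-4.13), Nnt (-4.15) and Scin (-3.83). With a shared dispersion the calls over all genes fell from 158 to 60 more positive and from 419 to 167 more negative. Serpinb9, Ccl5 and Ifng are known from cytotoxic lymphocytes.

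Among the genes named for d30, Foxp3 (-1.57), Itgb2 (-1.22) and Cnn2 (-1.12) had a more negative difference at d30 with a dispersion per gene. Foxp3 did not pass this test with a shared dispersion. Rab44 differed between the days too (edgeR adjusted p = 0.0133). It was at 0 in all CD4 libraries of d120, where Treg libraries were at least 54.4-fold higher, against a floor of 3 counts over the sort.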

How the results depend on the processing

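Foxp3, Il2ra and the other genes chosen by the smallest p, 29 in all, kept their direction and call in every alternative run except the double-positive marker covariate, in which Foxp3 (1.82), Cd24a (0.94) and Prss57 (1.74) no longer passed. All but Foxp3 were chosen by small p and lack of overlap in the same d30 libraries that these runs refit. That they kept their calls was therefore nearly fixed by the choice. Of all 116 genes named, 60 kept their direction but no longer passed with that covariate. The covariate left 335 calls (177 higher, 158 lower) and reversed the NF-kappaB median (0.128). Lyz2 (-0.0943), Epcam (-0.138) and Ciita (0.138) were reversed too and did not pass. Aire newly passed (4.75, edgeR adjusted p = 0.0215, dispersion per gene). The covariate follows the sort. Calls numbered 1826 (913 and 913) in SOD1-G93A libraries alone, 2614 (1319 higher, 1295 lower) in WT libraries alone and 1186 (579 higher, 607 lower) with 23 libraries; the causes were not tested. Leaving out 1 library gave 3093 to 4150 calls (1567 to 2081 higher, 1526 to 2069 lower). The replicate block gave 4238 calls (2184 higher, 2054 lower) and, beyond Cd3e, Aire, Ifng (-0.64 at d30, not called without the block) and the list counts given above, changed no other d30 call among the genes named.

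The genotype difference gave 0 calls with a shared dispersion (0 higher, 0 lower; 315 at an unadjusted p under 0.05), 5 without a filter (3 lower), and 2 to 11 with 1 library left out (1 to 6 higher, 1 to 5 lower), most without the second CD4 WT library. The d120 contrast gave 1584 calls (834 higher, 750 lower) from its 12 libraries alone and 2931 to 3940 with 1 left out (1812 to 2348 higher, 1119 to 1624 lower). The day difference gave 227 (60 higher, 167 lower) with a shared dispersion, 313 higher with DESeq2, 88 higher without a filter, and 362 to 553 with 1 library left out (100 to 149 higher, 262 to 419 lower); the fewest came without the second CD4 WT library of d30. The causes were not tested. With 1944589 counts in the shallowest d30 library, differences in genes of a few CPM were poorly resolved.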
